A study of Mus musculus with 6 samples.

Results

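The genes described here are 45 genes of DNA replication and nucleotide synthesis, taken by symbol from a table of 24964 genes, and all 45 were found in it. Expression was measured by RNA-seq in uterine luminal epithelium, the sheet of cells that lines the uterine cavity, which was cut out by laser capture from mated female mice on pregnancy day 4. Both groups carried loxP-flanked (floxed) Foxo1 alleles and held 3 samples each, and the females had been kept with littermates until 8 weeks of age. Foxo1ff samples had the genotype Foxo1f/f, with no Cre. Foxo1dd samples had the genotype Pgrcre/+ Foxo1f/f, so Cre was driven by the progesterone receptor gene Pgr, which is active in several uterine cell types and in the ovary, and these females also carried 1 altered Pgr allele that the Foxo1ff females lacked. The labels call the samples bioreplicates and do not tell whether each came from 1 animal, and the p-values reflect how far these samples spread. Values are FPKM, a read count divided by gene length and library depth.

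Before each S phase the origin recognition complex, with CDC6 and CDT1, loads the MCM2-7 ring onto DNA, a step called licensing that geminin blocks once it is complete. Cyclin E kinase and the factors CDC45 and GINS then turn the ring into an active helicase, after which polymerase alpha-primase starts each strand, the clamp PCNA holds polymerases delta and epsilon on it, and ribonucleotide reductase and thymidine enzymes supply the nucleotides. In the mouse uterus the luminal epithelium multiplies under estrogen early in pregnancy and stops dividing under progesterone before the embryo attaches.

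Promoters of 4 of these genes are printed here, with letters of the sites of E2F, a family known to drive S phase genes, marked. The 4 genes are Cdt1, Mcm6, Rrm2 and Rpa3. Cdt1, Mcm6 and Rrm2 had the largest log2 change of FPKM + 1 among genes with a promoter entry in licensing, helicase and nucleotide supply. By fold of mean FPKM, Cdc6 fell more than Cdt1 (17.2-fold against 9.83-fold) and Mcm10 more than Mcm6 (50.1-fold against 35.3-fold). Rpa3 had the smallest change of all 45. Each window runs from 250 bases before to 50 bases after the start, 5′ to 3′ on the gene's strand, from RefSeq on GRCm38.p6. Capitals mark E2F letters (TTTCCCGC, TTTCGCGC, TTTGCCGC or TTTGGCGC) and CCAAT, each on either strand.
Cdt1 promoter (chr8:122567765-122568064, plus strand): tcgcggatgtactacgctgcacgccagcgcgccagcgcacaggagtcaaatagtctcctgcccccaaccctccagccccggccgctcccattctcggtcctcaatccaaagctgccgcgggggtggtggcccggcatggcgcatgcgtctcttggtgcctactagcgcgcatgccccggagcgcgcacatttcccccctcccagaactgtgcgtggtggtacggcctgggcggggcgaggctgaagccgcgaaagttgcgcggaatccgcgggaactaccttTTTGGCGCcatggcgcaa
Mcm6 promoter (chr1:128359656-128359955, minus strand): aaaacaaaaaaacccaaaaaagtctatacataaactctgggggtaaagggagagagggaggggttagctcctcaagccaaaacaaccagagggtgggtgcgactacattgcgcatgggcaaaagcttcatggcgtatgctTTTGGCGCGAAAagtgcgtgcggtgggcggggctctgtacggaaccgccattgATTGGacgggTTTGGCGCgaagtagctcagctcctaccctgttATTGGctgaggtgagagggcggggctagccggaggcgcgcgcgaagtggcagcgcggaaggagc
Rrm2 promoter (chr12:24708004-24708303, plus strand): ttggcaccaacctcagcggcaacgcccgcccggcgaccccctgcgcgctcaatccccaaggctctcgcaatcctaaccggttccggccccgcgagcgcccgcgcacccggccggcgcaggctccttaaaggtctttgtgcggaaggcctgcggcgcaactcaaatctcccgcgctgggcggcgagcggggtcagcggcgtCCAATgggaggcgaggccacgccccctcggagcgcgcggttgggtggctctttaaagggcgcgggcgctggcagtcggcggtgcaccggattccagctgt
Rpa3 promoter (chr6:8259092-8259391, minus strand): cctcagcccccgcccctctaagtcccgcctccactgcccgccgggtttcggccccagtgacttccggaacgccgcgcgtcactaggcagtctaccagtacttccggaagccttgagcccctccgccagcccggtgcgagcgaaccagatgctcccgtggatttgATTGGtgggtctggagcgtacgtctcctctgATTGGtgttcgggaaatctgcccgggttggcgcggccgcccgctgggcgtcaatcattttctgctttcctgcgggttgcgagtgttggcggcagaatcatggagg
The Mcm6 window holds TTTGGCGC at 110 and again at 47 bases before the start, the first overlapping TTTCGCGC on the opposite strand. In Cdt1 the letters TTTGGCGC begin 33 bases after the start. The Rrm2 and Rpa3 windows hold CCAAT and none of the E2F letters.

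RefSeq promoter entries matched 36 of the 45 genes. Those without one were Gmnn, Mcm4, Gins1, Gins2, Gins4, Prim2, Pole, Rfc2 and Ccne2. E2F letters were found for 13 of the 36 (36.1%), against 4.86% of the 8983 tested genes with an entry and 2.60% of all 27025 genes with an entry. CCAAT was found for 22 of 36 (61.1%, against 43.2% of tested genes), the CHR letters TTTGAA or TTCGAA for 7 (19.4%, against 16.0%) and the forkhead letters GTAAACA for 2, Cdc45 and Mcm7 (5.56%, against 3.08%). The motif length and the number of letter strings differ, so the 4 shares are not to be ranked against each other. Within the 36, the 13 genes with E2F letters had log2 changes from -4.43 to -0.55 (median -1.72) and the 23 without from -4.44 to -0.01 (median -1.81). Large and small changes thus occurred with and without these letters. Whether E2F had a part in the changes was not tested.

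The target gene was measured first. Foxo1 had 160.0, 119 and 111 FPKM in Foxo1ff samples 1, 2 and 3, against 1.72, 0.942 and 1.22 FPKM in Foxo1dd samples 1, 2 and 3. Pgr, whose locus carries the Cre, had 2.44, 1.64 and 2.02 FPKM and, in Foxo1dd, 36.2, 29.9 and 28.3 FPKM. No member lies on the chromosome of either gene. Of the luminal and general epithelium markers, 10 of 10 were tested, 3 were called lower and 3 higher, and their summed level was 3493 to 4082 FPKM in Foxo1ff and 3630 to 4177 FPKM in Foxo1dd. Summed FPKM of other cell types' markers in Foxo1ff and Foxo1dd was 51.7 to 209.5 and 0.463 to 1.87 for 6 glandular genes, 34.2 to 38.4 and 37.6 to 53.2 for 10 stroma genes, 0.708 to 0.768 and 1.53 to 2.92 for 6 endothelium genes, and 2.98 to 5.20 and 3.77 to 4.76 for 5 smooth muscle genes. Spink1 alone made up most of the glandular sum in each Foxo1ff sample, with 44.2, 57.2 and 178 FPKM in replicate order. Of the 6 glandular genes 3 were tested, Spink1, Prss28 and Prss29, and all 3 were called lower. Foxa2, also on the glandular list, was too low to be tested. Its groups overlapped, with 0.643 to 1.36 FPKM for Foxo1ff against 0.399 to 0.908 for Foxo1dd. The fall of the glandular sum thus rests mainly on 1 gene. Cxcl15, Wfdc3, Emcn and Myh11 of these lists were listed at 0 in every Foxo1ff sample. Of 10 leukocyte markers 8 were tested, 5 were lower and 2 higher. Ptprc, the pan-leukocyte CD45 gene, went from 3.59 ± 0.568 to 0.294 ± 0.0676 FPKM, while the list's sum was 34.4 to 34.8 FPKM in Foxo1ff and 73.2 to 87.2 FPKM in Foxo1dd, most of it Laptm5 in Foxo1dd (4.04 ± 1.57 against 63.2 ± 8.97 FPKM). The part of glandular cells and leukocytes in the changes below was not tested. Foxo1dd 2 stood apart, with 13995 genes above 0 against 15474 to 16062 in the other 5 samples, and with 40296 FPKM of Rn45s, the ribosomal RNA precursor, against 23715 to 31304. Summed FPKM was lower in every Foxo1dd library (552190 to 564628) than in every Foxo1ff library (613186 to 667499). Scaled by median-of-ratios, 42 of the 45 genes described below were called lower, and without Foxo1dd 2 it was 43. One read was worth 0.0101 to 0.0135 FPKM for a 1 kb gene, as judged from short RNA genes, with Foxo1dd 2 resting on 26 such genes and the others on 93 to 131.

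Replication genes were lower in Foxo1dd almost throughout. Of 45 tested, 43 fell and 0 rose (limma, Benjamini-Hochberg adjusted over all 11427 genes tested), where 34.2% of all tested genes were called lower, 22.2% higher and 56.4% in either direction. Of the 45, 9 had a Foxo1dd mean under 1 FPKM and passed the filter of a mean of 1 FPKM through their Foxo1ff level. At an unadjusted p under 0.05 the number higher was 0 as well. The median log2 change was -1.72 over the 45 genes and -0.15 over all genes tested, and under median-of-ratios scaling these were -1.64 and -0.03. All 3 Foxo1dd values lay below all 3 Foxo1ff values for the same number of members, 43 (background 39.0%), all 3 lay above for 0 (background 25.3%), and the mean was at least 4-fold lower for 23 (background 7.58%). The 9 genes that passed the filter through Foxo1ff are all among the 43 and the 23. Their fall and its size are thus no support for the list. Members were also chosen with earlier results of these data known. In these bulk samples, fewer cells in S phase and less of each RNA per cell cannot be told apart. By step, the median log2 change was -2.55 for 5 licensing genes, -2.26 for 12 helicase genes, -1.66 for 8 polymerase and primase genes, -1.29 for 6 clamp and clamp loader genes, -2.03 for 5 genes of single-strand binding and fragment joining, and -2.43 for 5 nucleotide supply genes. The ranges of these 6 steps overlap each other.

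**Figure D1:**
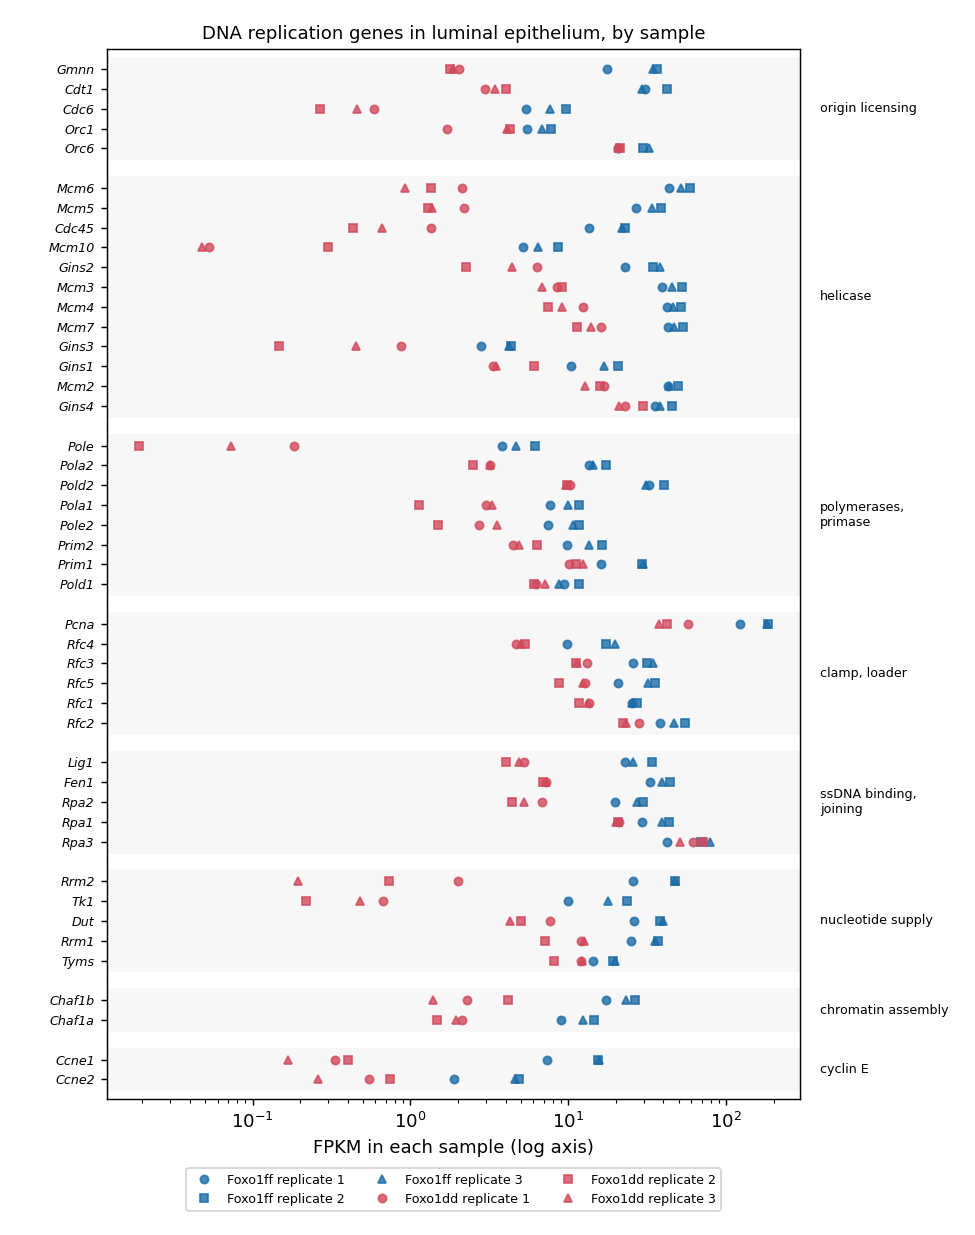
Each point is the FPKM of 1 gene in 1 sample (log axis), with genes grouped by step and ordered by their change. Blue Foxo1ff points lie to the right of red Foxo1dd points for 43 of 45 genes, and Orc6 and Rpa3 are the 2 genes whose groups overlap.

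**Figure D2:**
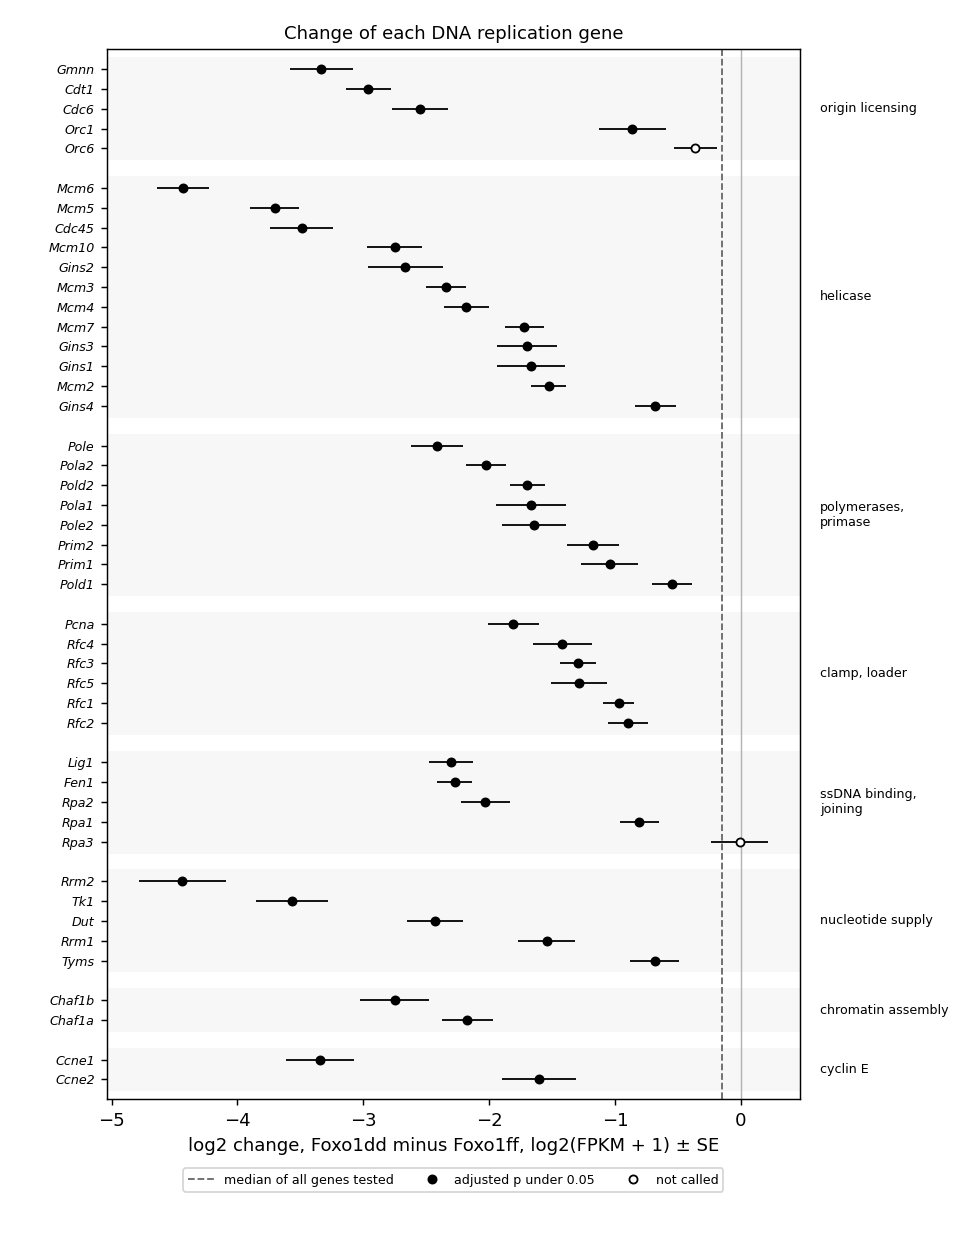
Points are log2 changes (Foxo1dd minus Foxo1ff, log2(FPKM + 1)) and bars are ± SE (n = 3 per group). Filled points passed an adjusted p of 0.05, open points did not, and the dashed line is the median of all genes tested, -0.15. Changes run from -4.44 for Rrm2 to -0.01 for Rpa3.

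Licensing genes split into 3 that fell steeply and 2 origin recognition subunits that moved less. Gmnn encodes geminin, the inhibitor of CDT1 (chromosome 13, 24751845 to 24761923, minus strand, in mm10 coordinates of GENCODE). It had 17.7, 36.2 and 34.1 FPKM in the Foxo1ff samples, against 2.02, 1.77 and 1.85 FPKM in the Foxo1dd samples, in replicate order. The 3 Foxo1dd samples were close to each other and all far below Foxo1ff 1, the lowest of its group (log2 change -3.33 ± 0.25 SE, n = 3 per group, limma adjusted p = 7.63e-06). Cdt1, the loader that geminin blocks (chromosome 8, 122568015 to 122573554, plus strand), had 30.7, 42.5 and 29.1 FPKM in the Foxo1ff samples, against 2.96, 4.04 and 3.42 FPKM in the Foxo1dd samples, 9.83-fold lower. Cdc6, the ATPase that works with it, was 17.2-fold lower, at 7.56 ± 2.11 against 0.438 ± 0.162 FPKM (SD, n = 3 each). With a Foxo1dd mean under 1 FPKM, Cdc6 passed the filter through its Foxo1ff level. The loader and its inhibitor therefore went down side by side, the ratio of Cdt1 to Gmnn at 0.852 to 1.74 in the Foxo1ff samples and 1.47 to 2.28 in the Foxo1dd samples, ranges that overlap.

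Orc1, the largest origin recognition subunit, had 5.44, 7.71 and 6.78 FPKM in the Foxo1ff samples, against 1.71, 4.25 and 4.12 FPKM in the Foxo1dd samples. The groups did not overlap, and the call was narrow (log2 change -0.86 ± 0.27, adjusted p = 0.0213 by limma). It was lost without Foxo1ff replicate 2 (adjusted p = 0.0792), without Foxo1ff replicate 3 (0.0596), under median-of-ratios scaling (0.0518), under quantile normalization (0.0518) and with no filter (0.0680). Orc6, a small subunit of the same complex, was not called (-0.36 ± 0.17, adjusted p = 0.101 by limma). Its FPKM was 20.5, 29.9 and 32.3 in the Foxo1ff samples, against 20.8, 21.3 and 20.5 in the Foxo1dd samples. Foxo1ff 1 lay at the Foxo1dd level and the other Foxo1ff samples above it, and without Foxo1ff replicate 1 the gene was called lower (-0.56, adjusted p = 0.00898). Orc6 overlaps exons of Vps35 on the opposite strand and Orc1 those of Gm12743, so with the strand setting unknown some reads could belong to the neighbours.

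Helicase genes all fell, 12 of 12 (background 34.2%), with sizes that differed widely between subunits of the same machine. Of the 12, 3 had a Foxo1dd mean under 1 FPKM and passed the filter through their Foxo1ff level. Mcm6 (chromosome 1, 128331590 to 128359664, minus strand) had 43.6, 59.3 and 51.4 FPKM in the Foxo1ff samples, against 2.12, 1.34 and 0.919 FPKM in the Foxo1dd samples, 35.3-fold lower (log2 change -4.43 ± 0.20 SE, n = 3 per group, limma adjusted p = 6.15e-07). Mcm2 (chromosome 6, 88883474 to 88898780, minus strand), another subunit of the 6-membered ring, had 42.9, 49.6 and 43.3 FPKM and, in Foxo1dd, 16.7, 15.8 and 12.8 FPKM, 3.00-fold lower (-1.53 ± 0.14, adjusted p = 2.25e-05 by limma). Both genes had groups that lie far apart, and the Foxo1dd mean was 33.4% of the Foxo1ff mean for Mcm2 and 2.84% for Mcm6.

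The other ring subunits fell by amounts between these. Mcm5 had 26.7, 38.5 and 34.0 FPKM in the Foxo1ff samples, against 2.18, 1.30 and 1.38 FPKM in the Foxo1dd samples (20.5-fold lower). Mcm3, Mcm4 and Mcm7 were 5.58-fold, 4.82-fold and 3.45-fold lower, and Mcm7 shares exon positions with Mir25 and Mir93 on its own strand and with Ap4m1 and Cops6 on the other. FPKM is per length, but the gene lengths used are unknown, so levels of different subunits compare only roughly within a sample. The shift of a ratio between the groups does not depend on these lengths. The highest of the 6 subunits exceeded the lowest by 1.51-fold to 1.63-fold in Foxo1ff and by 7.90-fold to 15.2-fold in Foxo1dd. Mcm6 stood at 1.02 to 1.19 times Mcm2 in the Foxo1ff samples and at 0.0717 to 0.127 times Mcm2 in the Foxo1dd samples. Similar FPKM values in Foxo1ff were thus replaced by a pair of low subunits, Mcm5 and Mcm6, beside 4 higher ones in each Foxo1dd sample. These ratios, and those given later for other pairs, were chosen after their values had been seen, and with 3 samples against 3 an exact permutation test cannot go below p = 0.1, so they are given without a test.

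**Figure D3:**
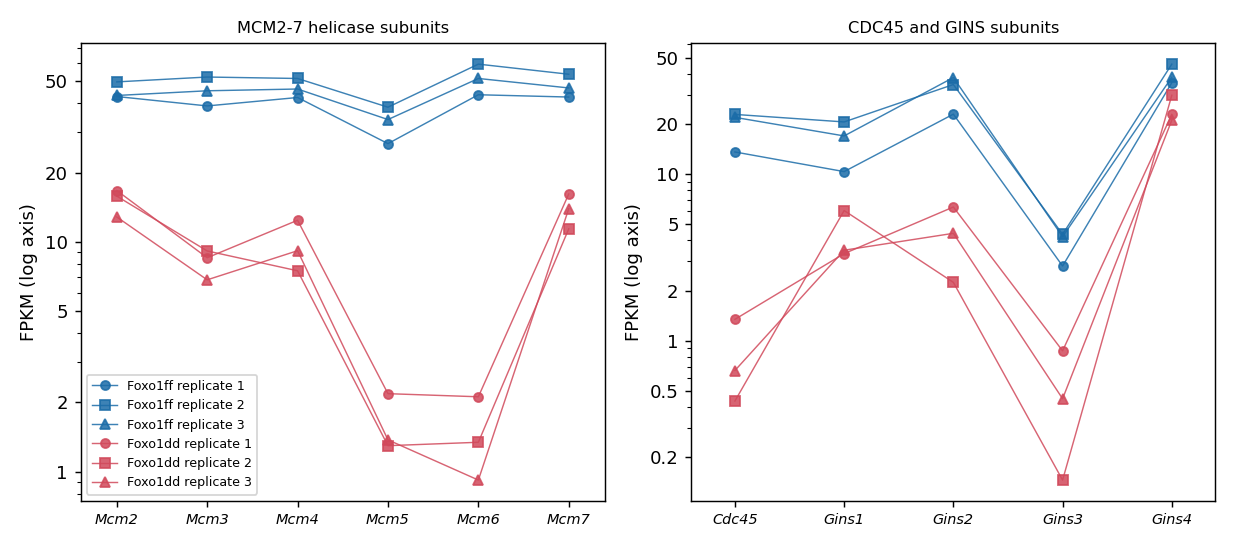
Points are FPKM (log axis) of helicase subunits, and each line joins the subunits within 1 sample. The Foxo1ff lines for Mcm2 to Mcm7 are nearly flat (highest over lowest 1.51 to 1.63), and the Foxo1dd lines dip at Mcm5 and Mcm6 (7.90 to 15.2). Among the GINS subunits, Gins4 lies nearest between the groups.

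Factors that activate the ring showed a similar spread. Mcm10, which helps the assembled helicase to start, had 5.15, 8.59 and 6.43 FPKM in the Foxo1ff samples, against 0.053, 0.302 and 0.048 FPKM in the Foxo1dd samples (chromosome 2, 4989714 to 5012791, minus strand). Foxo1dd 2 was well above the other Foxo1dd samples, and the gene was 50.1-fold lower with all samples and 133-fold lower without Foxo1dd 2. Its Foxo1dd values correspond to about 31 to 172 reads against 3544 to 6519 in Foxo1ff, by exon length. Cdc45, which joins the ring to form the active helicase, had 13.6, 22.8 and 21.9 FPKM and, in Foxo1dd, 1.34, 0.435 and 0.663 FPKM, 23.8-fold lower (log2 change -3.49 ± 0.25, adjusted p = 6.10e-06 by limma). Cdc45 overlaps exons of Ufd1 on the opposite strand. The 4 GINS genes, whose products form a single complex, ranged from 7.76-fold lower for Gins3 and 7.33-fold for Gins2 to 3.72-fold for Gins1 and 1.62-fold for Gins4. Without Foxo1dd 1 the fold of Gins3 was 12.7. Gins4 had 35.3, 45.6 and 38.1 FPKM in the Foxo1ff samples, against 22.8, 29.7 and 21.0 FPKM in the Foxo1dd samples, so its groups came close without overlapping (-0.68 ± 0.16, adjusted p = 0.00598 by limma). Gins3 had the lowest FPKM of the 4 in every sample, and Gins2 overlaps exons of Gse1 on the opposite strand.

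Polymerase and primase genes fell in 8 of 8 cases (background 34.2%), by 1.54-fold to 53.5-fold. Of the 8, 1 (Pole) had a Foxo1dd mean under 1 FPKM and passed the filter through its Foxo1ff level. Pole, the catalytic subunit of polymerase epsilon, which copies the leading strand (chromosome 5, 110286306 to 110337474, plus strand), had 3.83, 6.17 and 4.65 FPKM in the Foxo1ff samples, against 0.182, 0.019 and 0.073 FPKM in the Foxo1dd samples. It was 53.5-fold lower (log2 change -2.41 ± 0.21, adjusted p = 1.53e-05 by limma), from about 3822 to 6796 reads in Foxo1ff and 16 to 156 in Foxo1dd. Without Foxo1dd 1, its highest Foxo1dd value, the fold was 106, and without Foxo1dd 2 it was 38.3. The pseudocount of 1 FPKM shrinks the log2 change of so low a gene. Its exons overlap Gm15792 on the opposite strand. Pole2, the partner subunit, was 3.88-fold lower, at 9.97 ± 2.29 against 2.57 ± 1.02 FPKM (SD, n = 3 each), and shares exon positions with Gm49384 on its strand.

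Pold1, the catalytic subunit of polymerase delta, which copies the lagging strand (chromosome 7, 44532746 to 44548849, minus strand), changed least in this step. It had 9.43, 11.7 and 8.77 FPKM in the Foxo1ff samples, against 6.22, 6.03 and 7.13 FPKM in the Foxo1dd samples (log2 change -0.55 ± 0.16, adjusted p = 0.0152 by limma). Without Foxo1ff replicate 2 it was no longer called (adjusted p = 0.0864). Its partner Pold2 was 3.49-fold lower, with 32.3, 40.2 and 31.2 FPKM against 10.3, 9.80 and 9.65 FPKM. In the complex that starts new strands, the polymerase alpha subunits Pola1 and Pola2 were 3.92-fold and 5.11-fold lower, and the primase subunits Prim1 and Prim2 2.22-fold and 2.53-fold lower. The ratio of the leading and lagging strand catalytic subunits therefore shifted. Pole stood at 0.406 to 0.530 times Pold1 in Foxo1ff and at 0.00315 to 0.0293 times Pold1 in Foxo1dd.

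The clamp Pcna (chromosome 2, 132249162 to 132253314, minus strand) had the highest FPKM of the 45 genes in every Foxo1ff sample. Its FPKM was 123, 184 and 182 in the Foxo1ff samples, against 57.6, 42.1 and 37.7 in the Foxo1dd samples, 3.56-fold lower (log2 change -1.81 ± 0.20, adjusted p = 7.23e-05 by limma). The 5 subunits of replication factor C, which loads the clamp, fell together within a narrow range, from 1.91-fold for Rfc2 to 3.13-fold for Rfc4. Rfc1, the large subunit, went from 26.1 ± 1.19 to 12.8 ± 0.997 FPKM and Rfc2 from 46.7 ± 8.41 to 24.5 ± 3.27 FPKM (SD, n = 3 each). None of these 6 genes fell by 4-fold or more (background 7.58%), so this count does not set the step apart from all genes. The genes Rfc2, Rfc4 and Rfc5 overlap exons of Lat2, Eif4a2 and Wsb2 on the opposite strand.

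Replication protein A, which coats single-stranded DNA, is made of 3 subunits whose changes differed. Rpa2 had 19.8, 29.7 and 27.3 FPKM in the Foxo1ff samples, against 6.85, 4.40 and 5.26 FPKM in the Foxo1dd samples, 4.65-fold lower (log2 change -2.03 ± 0.20, adjusted p = 3.39e-05 by limma). Rpa1, the large subunit, had 29.4, 43.2 and 38.9 FPKM and, in Foxo1dd, 20.9, 20.6 and 20.1 FPKM, 1.81-fold lower (adjusted p = 0.00183 by limma), and shares exon positions with Gm47300 on its strand. Rpa3, the small subunit (chromosome 6, 8255936 to 8259173, minus strand), had 42.2, 69.2 and 78.4 FPKM and, in Foxo1dd, 61.7, 71.6 and 50.9 FPKM. Its groups overlapped and it was not called (-0.01 ± 0.23, adjusted p = 0.975 by limma), with a sign that turned under median-of-ratios scaling (0.11) and quantile normalization (0.12). Within a sample, Rpa3 stood at 1.44 to 2.01 times Rpa1 in Foxo1ff and at 2.53 to 3.47 times Rpa1 in Foxo1dd. Rpa2 stood at 0.672 to 0.701 and 0.213 to 0.327 times Rpa1.

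**Figure D4:**
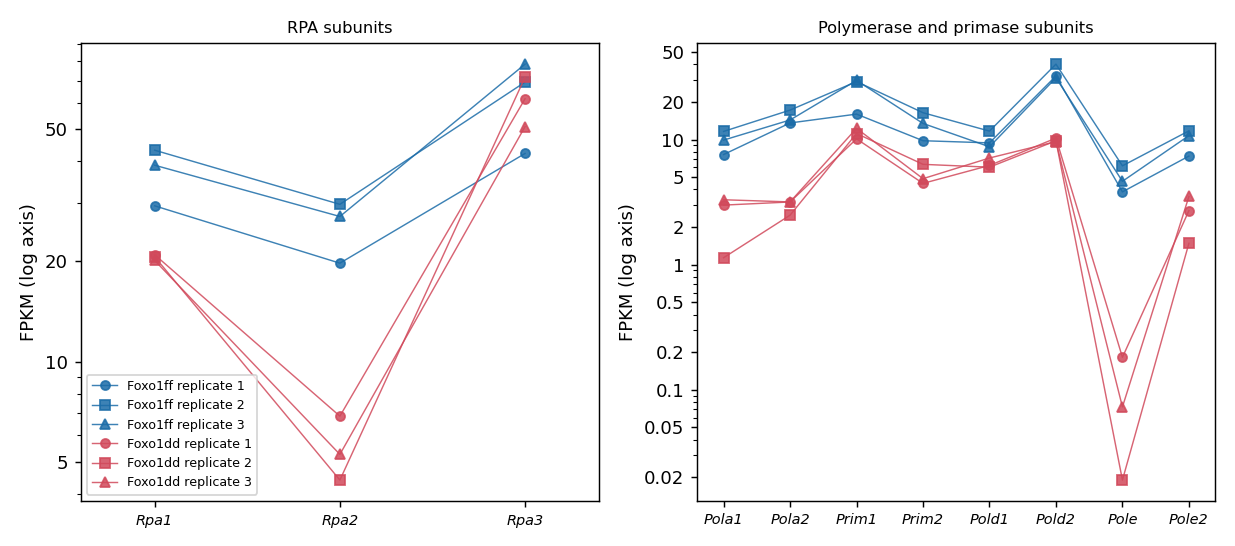
Points are FPKM (log axis) of RPA, polymerase and primase subunits, with a line joining the genes within 1 sample. Rpa3 is mixed between the groups while Rpa2 is 4.65-fold lower in Foxo1dd, and Pole drops to 0.019 to 0.182 FPKM in Foxo1dd.

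The enzymes that finish lagging strand fragments fell by similar amounts. Fen1, the flap nuclease that removes primers, had 32.9, 43.8 and 39.0 FPKM in the Foxo1ff samples, against 7.25, 6.96 and 7.17 FPKM in the Foxo1dd samples, 5.41-fold lower. Lig1, the ligase that seals the fragments, had 22.7, 33.7 and 25.9 FPKM and, in Foxo1dd, 5.26, 4.03 and 4.84 FPKM, 5.83-fold lower. Their limma adjusted p were 2.49e-06 and 8.09e-06, and the 3 Foxo1dd samples of Fen1 differed by less than 0.3 FPKM. Fen1 overlaps exons of Gm10143 and Tmem258, and Lig1 those of Zswim9, on the opposite strand.

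Nucleotide supply genes fell in 5 of 5 cases (background 34.2%), with Rrm2 and Tk1 far below the rest. These 2 had a Foxo1dd mean under 1 FPKM and passed the filter through their Foxo1ff level. Rrm2, the small subunit of ribonucleotide reductase made for S phase (chromosome 12, 24708241 to 24714146, plus strand), had 25.7, 47.6 and 47.5 FPKM in the Foxo1ff samples, against 2.00, 0.732 and 0.194 FPKM in the Foxo1dd samples. All 3 Foxo1dd values were low and differed widely, and the gene was 41.3-fold lower (log2 change -4.44 ± 0.35 SE, n = 3 per group, limma adjusted p = 9.47e-06), or 87.0-fold without Foxo1dd 1. Rrm1, the large subunit of the same enzyme, had 24.8, 37.1 and 35.2 FPKM and, in Foxo1dd, 12.01, 7.15 and 12.5 FPKM, 3.06-fold lower. Rrm2 stood at 1.04 to 1.35 times Rrm1 in Foxo1ff and at 0.0155 to 0.166 times Rrm1 in Foxo1dd.

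Tk1, the cytosolic thymidine kinase of dividing cells (chromosome 11, 117815526 to 117826092, minus strand), had 9.89, 23.4 and 17.8 FPKM in the Foxo1ff samples, against 0.672, 0.217 and 0.481 FPKM in the Foxo1dd samples, 37.4-fold lower, and overlaps exons of Afmid on the opposite strand. Dut, which removes dUTP and makes the precursor of thymidylate, was 6.12-fold lower, at 34.7 ± 7.40 against 5.67 ± 1.77 FPKM (SD, n = 3 each). Tyms, thymidylate synthase (chromosome 5, 30058202 to 30073617, minus strand), changed least. Its FPKM was 14.4, 19.2 and 19.8 in the Foxo1ff samples, against 12.1, 8.06 and 12.1 in the Foxo1dd samples, groups that lay close without overlapping (log2 change -0.68 ± 0.19, adjusted p = 0.0139 by limma). The call of Tyms was lost without Foxo1ff replicate 2 (adjusted p = 0.0575) or Foxo1ff replicate 3 (0.0543).

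Enzymes of the same pathways outside the 45 genes were measured too. Of 16 other nucleotide synthesis genes, 10 fell (background 34.2%), 2 rose, a smaller share than the background of 22.2%, and 4 were not called. The 2 that rose, Tk2 and Rrm2b, encode a thymidine kinase and a reductase subunit, as Tk1 and Rrm2 do. Tk2, the mitochondrial thymidine kinase, had 16.5, 15.4 and 14.4 FPKM in the Foxo1ff samples, against 27.5, 30.4 and 31.0 FPKM in the Foxo1dd samples (log2 change 0.90 ± 0.12, adjusted p = 2.60e-04 by limma). Rrm2b, the reductase subunit used outside S phase and for repair, had 8.89, 8.60 and 8.92 FPKM and, in Foxo1dd, 16.5, 12.6 and 11.2 FPKM (0.54 ± 0.16, adjusted p = 0.0183 by limma). The Rrm2b call was lost without Foxo1ff replicate 2 (0.0656) or Foxo1dd replicate 1 (0.0565). In each sample of Foxo1ff, Rrm2b stood at 0.181 to 0.346 times Rrm2, and in Foxo1dd at 8.24 to 57.8 times Rrm2. Umps and Shmt1, of pyrimidine and one-carbon synthesis, had the smallest p of the genes that fell, at 42.3 ± 4.22 against 9.78 ± 1.32 FPKM and 63.3 ± 3.90 against 12.9 ± 2.88 FPKM (SD, n = 3 each).

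**Figure D5:**
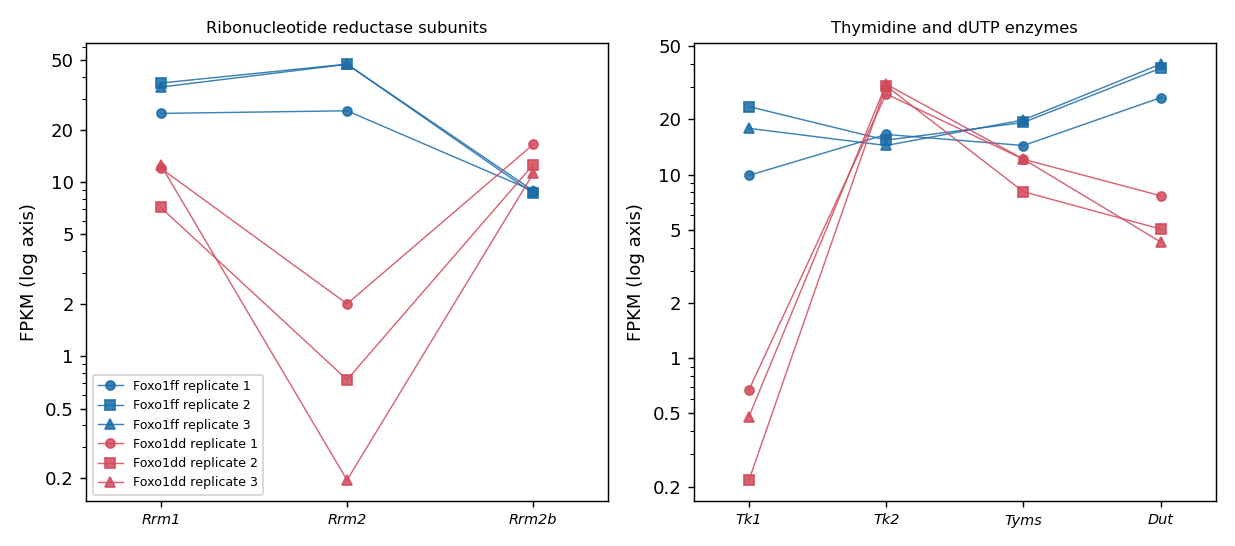
Points are FPKM (log axis) of nucleotide enzymes, with a line joining the genes within 1 sample. Rrm2 and Tk1 are 41.3-fold and 37.4-fold lower in Foxo1dd, and the red Foxo1dd points for Rrm2b and Tk2 lie above the blue ones.

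Both subunits of chromatin assembly factor 1, which places histones on new DNA, fell. Chaf1b had 17.4, 26.6 and 23.2 FPKM in the Foxo1ff samples, against 2.28, 4.14 and 1.38 FPKM in the Foxo1dd samples (8.61-fold lower). Chaf1a had 8.97, 14.6 and 12.4 FPKM and, in Foxo1dd, 2.13, 1.46 and 1.95 FPKM (6.50-fold lower) and overlaps exons of Ubxn6 on the opposite strand. Their limma adjusted p were 4.02e-05 and 2.60e-05. The E-type cyclins, which drive entry into S phase, fell in 2 of 2 cases (background 34.2%). Both had a Foxo1dd mean under 1 FPKM and passed the filter through their Foxo1ff level. Their fall and its size are thus no support for the list. Ccne1 had 7.35, 15.5 and 15.6 FPKM in the Foxo1ff samples, against 0.331, 0.401 and 0.168 FPKM in the Foxo1dd samples, 42.7-fold lower (log2 change -3.34 ± 0.27, adjusted p = 1.15e-05 by limma). Ccne2 had 1.88, 4.89 and 4.61 FPKM and, in Foxo1dd, 0.543, 0.747 and 0.259 FPKM, 7.34-fold lower (adjusted p = 0.00144 by limma), and overlaps exons of Ints8 on the opposite strand. The ratio of the pair shifted, Ccne2 standing at 0.255 to 0.316 times Ccne1 in Foxo1ff and at 1.54 to 1.86 times Ccne1 in Foxo1dd. Both genes were under 1 FPKM in every Foxo1dd sample.

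Among other replication genes, 59 in 5 lists, 43 fell (background 34.2%), 3 rose (background 22.2%) and 13 were not called. Of the 59, 11 had a Foxo1dd mean under 1 FPKM and passed the filter through their Foxo1ff level. Origin firing genes fell in 10 of 10 cases, 5 of which passed the filter only through Foxo1ff, with Wdhd1, a polymerase alpha tether, at 7.38 ± 1.14 against 0.381 ± 0.0674 FPKM and Topbp1, a scaffold for helicase activation, at 30.8 ± 2.96 against 8.28 ± 1.43 FPKM (SD, n = 3 each). Of 7 other licensing genes 3 fell, a share near the background, among them Mcmbp and Mcm8 by 0.61 and 1.01 on the log2 scale, 0 rose and 4 were not called, and the list's median log2 change was -0.22. Of 18 other fork genes 13 fell, 1 rose and 4 were not called. The 4 were Pole4, Top1, Top2a and Top2b, with log2 changes of -0.33, -0.01, 0.09 and -0.18. Top2a had 20.5, 45.6 and 29.9 FPKM in the Foxo1ff samples, against 27.1, 20.3 and 61.4 FPKM in the Foxo1dd samples. Clspn, the checkpoint adaptor claspin, and Chtf18, of an alternative clamp loader, had log2 changes of -2.25 and -2.57. The 1 that rose was Pold4, the smallest polymerase delta subunit (log2 change 1.01, adjusted p = 0.00346 by limma). It had 2.02, 2.27 and 2.99 FPKM in the Foxo1ff samples, against 4.33, 5.98 and 7.69 FPKM in the Foxo1dd samples. All 3 Foxo1dd values lay above all 3 Foxo1ff values (background 25.3%). Of 8 other chromatin replication genes 7 fell, with Uhrf1, which guides maintenance methylation, and Asf1a, a histone chaperone, at log2 changes of -3.84 and -2.15.

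Samples also differed within a group. Foxo1ff 1 was the lowest of the Foxo1ff samples for 41 of the 45 genes (91.1%), against 33.6% of all genes tested, and Foxo1ff 2 the highest for 36 (80.0%), against 33.7%. Summed over the 45 genes, the Foxo1ff samples had 1034, 1509 and 1390 FPKM and the Foxo1dd samples 432.6, 392.1 and 374.1 FPKM, in replicate order. The lowest Foxo1ff sum was thus well above the highest Foxo1dd sum.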

How the data were processed

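The deposited table gives FPKM per gene and sample, computed by the authors. Per the submitters' processing notes, STAR 2.5.2b, featureCounts 1.5.0-p1, Subread, edgeR 3.28.0 and DESeq2 1.12.4 on mm10 were named, with no role. For annotation, gene lengths and strand setting, nothing was given in the sources used here. FPKM values are not counts, so log2(FPKM + 1) was tested with limma 3.58.1 in R 4.3.3 (trend, genotype only) for genes with an average of 1 FPKM or more in the 6 samples (11427 genes). A call is a Benjamini-Hochberg adjusted p under 0.05. All 45 members passed, 9 with a Foxo1dd mean below 1 FPKM. On simulated data of 11427 genes, 66 of 100 changes of 1 log2 and 89 of 100 of 2 log2 were recovered, and 7 unchanged genes were called. Far fewer genes were changed there than were called in the data, so these shares do not carry over to the fit used here. Members and lists were chosen with earlier results of these data known. Named members are the largest and smallest log2 changes per step and every gene not called. Other named genes are the 2 smallest p per list and direction, and the other fork genes not called. Depth was read as the step of whole reads in FPKM times length, with 88.5% to 100.0% of values under 12 reads whole to 0.05 of a read. Approximate reads use summed exon length. Positions and overlaps are from GENCODE. Alternatives were a pseudocount of 0.1, no filter, quantile normalization, median-of-ratios scaling, a minimum of 5 FPKM, a replicate block and leaving out each sample.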

Additional observations from a re-analysis of the deposited data

How the results depend on the processing

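The 43 members called lower were 42 with no filter, under median-of-ratios scaling and under quantile normalization, 38 of 40 tested at a minimum of 5 FPKM, 43 with a pseudocount of 0.1, and 40 to 44 on leaving out each sample in turn, while the number higher was 0 in every alternative run. Scaling moved the median log2 change of all genes from -0.15 to -0.03 (median-of-ratios) and -0.0040 (quantile), and that of the members from -1.72 to -1.64 and -1.59. Rpa3, near 0, turned to 0.11 and 0.12 under these scalings, and ranged from -0.27 to 0.17 on leaving out each sample, above 0 in 3 of these fits. At a minimum of 5 FPKM the origin firing genes called lower went from 10 to 5 and the other fork genes from 13 to 7, because fewer genes were tested (5 and 11). Stroma markers called higher ranged from 0 to 4 on leaving out each sample. With the bioreplicate number as a replicate block 43 members were lower and 0 higher, and over all genes 3724 were lower and 2417 higher against 3912 and 2533. Deviations of same-numbered samples correlated at 0.12, 0.11 and -0.13, so the numbers were not taken as pairs, and Foxo1ff 3 correlated best with Foxo1dd 2 (0.15). The depth of Foxo1dd 2 is the least certain, and so are its approximate reads, while the folds are ratios of mean FPKM and do not use this depth. The folds of Pole, Gins3, Mcm10, Ccne1 and Rrm2 rest on few reads in Foxo1dd, at the lowest about 16, 29, 31, 38 and 46. Leaving out 1 sample moved the fold by over 1.5 times for 4 members, Rrm2, Pole and Gins3 without Foxo1dd 1 and Mcm10 without Foxo1dd 2.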

Other observations

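Regulators and later phases of the cell cycle were measured beside the replication genes, from lists made with earlier results known. Of 18 mitosis genes, 18 fell (background 34.2%) and 0 rose (background 22.2%), with 0 higher at an unadjusted p under 0.05, and each was at least 4-fold lower (background 7.58%). A Foxo1dd mean under 1 FPKM was found for 14 of the 18, which passed the filter through their Foxo1ff level, so their fall and its size are no support for the list. Mki67, the Ki-67 proliferation antigen, had 10.2, 21.7 and 12.5 FPKM in the Foxo1ff samples, against 0.185, 0.115 and 0.206 FPKM in the Foxo1dd samples. Cdk1, the mitotic kinase, had 13.2, 30.9 and 23.4 FPKM and, in Foxo1dd, 1.10, 0.34 and 0.387 FPKM. Foxo1ff 1 was the lowest and Foxo1ff 2 the highest of the Foxo1ff samples for 18 of these 18 genes, the same order that most replication genes showed.

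Of 13 E2F and pocket protein genes, 10 fell (background 34.2%), 1 rose (background 22.2%) and 2 were not called. Of the 13, 4 (E2f1 and E2f8 among them) had a Foxo1dd mean under 1 FPKM and passed the filter through Foxo1ff. E2f1, an activator of S phase genes, had 9.13, 15.7 and 12.7 FPKM in the Foxo1ff samples, against 0.234, 0.174 and 0.068 FPKM in the Foxo1dd samples (log2 change -3.52, adjusted p = 2.16e-06 by limma). E2f8, a repressor made in S phase, had 5.38, 11.1 and 7.41 FPKM and, in Foxo1dd, 0.154, 0.293 and 0.049 FPKM. Rbl2, the pocket protein p130 of resting cells, had 13.2, 10.9 and 10.3 FPKM and, in Foxo1dd, 43.5, 24.0 and 45.1 FPKM (log2 change 1.58, adjusted p = 3.93e-04 by limma). Every Foxo1dd sample thus lay above every Foxo1ff sample (background 25.3%). At a minimum of 5 FPKM, where 8 genes of this list and 9 mitosis genes were tested, 5 and 9 were called lower.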
